A study of Mus musculus with 8 samples.

Results

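ATP-binding cassette (ABC) transporters other than Abcg5 and Abcg8 were examined in colon tumors of Apc-mutant mice. Members were all probes whose gene symbol was Abc followed by a letter from a to g, a number and an optional final letter, without Abcg5 and Abcg8. This gave 79 probes for 45 genes, out of 25697 probes for 18138 gene symbols on a 1-colour Illumina BeadChip. In 4 tumor samples (VP16LXRa, replicates 5 to 8) a transgene encoded the viral activation domain VP16 fused to liver X receptor alpha (LXRα), a fusion that activates LXR target genes without added ligand. In the other 4 samples (VP16, replicates 1 to 4) the transgene encoded VP16 alone. All mice, VP16 controls included, were APCmin/+, a genotype with a shortened form of Apc, which normally restrains Wnt signalling, and were 8 months old and of a mixed C57BL/6J and FVBN strain. The labels give neither the promoter of the transgene nor the number of mice behind the tumors. A p-value here measures only how these samples vary, and that variation may be technical.

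ABC proteins use ATP to move substrates across membranes, and are grouped by sequence into subfamilies A to G. Those of subfamilies A and G mostly carry lipids and sterols, B and C include drug, conjugate and bile salt exporters, D members serve peroxisomes and lysosomes, and E and F members do not span membranes and act on ribosomes and translation. LXRα and LXRβ are nuclear receptors for oxysterols, and Abca1, Abcg1, Abcg5 and Abcg8 are textbook LXR targets through which cells export cholesterol. The comparison of VP16LXRa with VP16 tumors asks how a constitutively active LXRα changes gene expression, here over the rest of the transporter family.

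Median raw signals of the arrays lay between 126 and 146, and each array detected 44.6% to 47.7% of its probes. VP16LXRa replicate 5 and VP16 replicate 1 stood apart from the others: they correlated with each other at r = 0.95 across tested probes and with the other 6 arrays at 0.833 to 0.924. Colonocyte markers (7 of 10 listed genes on the array, all 7 tested) summed to 5121 in VP16LXRa replicate 5 and 22377 in VP16 replicate 1, and to between 66695 and 83893 linear intensity units in the other 6 arrays. Wnt targets (9 of 9 on the array, 5 tested) summed to 6442 and 5455 in these arrays, against 638 to 1123 in the others. Fibroblast markers (8 of 8 on the array and tested) summed to 16219 and 16998 in these arrays, against 3495 to 8681 in the others. The brightest of them, Dcn (log2 13.54 and 13.68 in these arrays), weighed most in the sums. Dcn, Col1a1, Col1a2, Col3a1, Pdgfra and Thy1 were each highest in these arrays. Lum (5.99) and Dpt (6.29) were instead lowest in VP16LXRa replicate 5, and within the range of the others in VP16 replicate 1. Neutrophil markers (7 of 8 on the array, 2 tested) summed to 12055 and 3694 in these arrays, against 157 to 982 in the others. For named members with their 2 highest or 2 lowest values in these arrays, differences without 1 or both of them are given. They stand beside the values or in the paragraph on arrays. Not every member with its highest or lowest value in only 1 of these arrays has such a difference given. No batch could be examined, since neither labels nor file headers name a slide or a scan.

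A gene was called detected where 4 or more of the 8 arrays detected one of its probes (detection p-value under 0.01), and only such probes were tested. This held for 23 of the 45 ABC genes (34 probes). The share, 51.1%, was close to the 50.2% of all genes on the array. Of the 23 genes, 15 had a probe that was detected on all 8 arrays, among them Abca3, Abca7, Abcb6, Abcb8, Abcb9, Abcc3, Abcc5, Abcc9, Abcc10, Abcd3, Abcd4, Abcf1, Abcf2 and Abcf3. The other 8 were near the detection limit in some samples, namely Abce1, Abcb1b, Abca2, Abcg2, Abca8a, Abca17, Abcg1 and Abcg4. Detection followed the subfamilies unevenly, as a description of these probes: all 4 genes of subfamilies E and F were detected, against 5 of 16 of subfamily A.

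**Figure D1:**
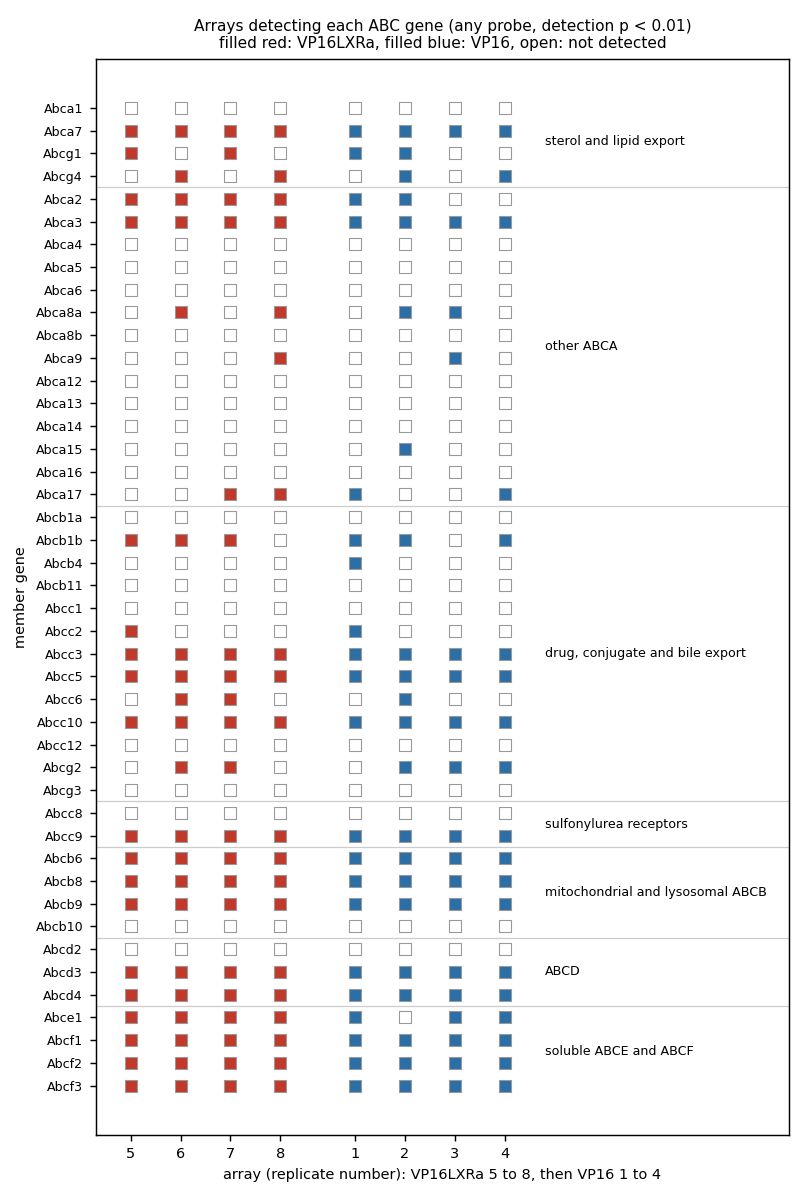
Detection of 44 of the 45 ABC genes (rows, by role) on the 8 arrays (columns, VP16LXRa replicates 5 to 8 left of VP16 replicates 1 to 4). A filled square means that any probe of the gene had a detection p-value under 0.01. Apart from Abcb10, Abcd2 and 1 array for Abce1, the mitochondrial and lysosomal, ABCD, ABCE and ABCF genes are filled throughout, and Abca1 is open on every array.

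Among the genes that could not be tested, 17 were detected on no array. They were Abca1, Abca4, Abca5, Abca6, Abca8b, Abca12, Abca13, Abca14 and Abca16 of subfamily A, Abcb1a, Abcb10 and Abcb11 of B, Abcc1, Abcc8 and Abcc12 of C, Abcd2, and Abcg3. A further 5 had probes that were each detected on 1 to 3 arrays: Abcc6 on 3, Abcc2 on up to 2, Abca15 and Abcb4 on 1, and each of 2 Abca9 probes on 1. An undetected probe says only that its signal did not exceed background on these arrays. Several of these genes are chromosomal neighbours: Abca8b, Abca8a, Abca9, Abca6 and Abca5 follow each other on chromosome 11, and only Abca8a was tested, while Abca14, Abca15 and Abca16 adjoin on chromosome 7 and none was.

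Abca1, the exporter that loads cholesterol onto apolipoprotein A-I, is the best known LXR target of the family and was represented by 1 probe. Its log2 intensity was 4.57, 4.55, 4.49 and 4.59 in VP16LXRa replicates 5 to 8, and 4.58, 4.54, 4.52 and 4.51 in VP16 replicates 1 to 4. All of these lay at the mean of undetected values (4.62), with detection p-values of 0.299 to 0.492, so no fold is given.

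LXR binds as a dimer with RXR to direct repeats of AGGTCA spaced by 4 bases of any kind. The closest match to this motif on either strand was searched for in RefSeq promoters (GRCm38.p6, 250 bases before to 50 after each start), which were given for 34 of the 45 genes in 39 windows. Abcg1 was not among the genes with a window, so its promoter was not searched. Windows are shown for Abca1, the textbook target, for Abca7, a lipid transporter detected on all 8 arrays, and for Abca2, whose probe had the smallest p in the comparison below. Each has 30 bases on either side, 5′ to 3′ on the gene's own strand, with the closest match in capitals.
Abca1 (chr4:53159917-53159992, minus strand): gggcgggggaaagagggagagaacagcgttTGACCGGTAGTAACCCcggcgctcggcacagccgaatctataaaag
Abca7 (chr10:79996247-79996322, plus strand): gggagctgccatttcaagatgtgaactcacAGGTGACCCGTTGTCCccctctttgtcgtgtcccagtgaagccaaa
Abca2 (chr2:25428366-25428441, plus strand): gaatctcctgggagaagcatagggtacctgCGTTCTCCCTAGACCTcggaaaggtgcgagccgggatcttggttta

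The Abca1 match lies at bases -67 to -52 from the start. Read on the other strand it is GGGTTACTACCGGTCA, with 3 mismatches to the 12 fixed bases. A match with at most 3 mismatches was present in 21.9% of the 32851 promoter windows. Among the 39 ABC windows 2 had one, that of Abca1 and one of Abcc10 (TGAACTCAGCTGTCCT on the strand of the gene, 2 mismatches, chr17:46325721-46325736, bases 31 to 46 from a start). The closest matches of Abca7 and Abca2 had 4 mismatches, a level that 76.9% of all windows reached. A match is a description of the letters, and its absence from a window says nothing about LXR.

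No ABC gene differed between VP16LXRa and VP16 tumors past the threshold. Among the 34 tested probes, 0 passed limma's test at an adjusted p under 0.05 (background 0.00842%, 1 of 11875 probes), and 0 had an unadjusted p under 0.05 (background 1.68%). The groups overlapped for every one of the 34 probes (background of probes without overlap 1.28%). The smallest unadjusted p was 0.0543, for Abca2 (limma; adjusted p = 0.9999). With each gene at its brightest tested probe, 15 of the 23 genes had a positive and 8 a negative log2 difference (VP16LXRa minus VP16). The positive share was 65.2%, beside 52.3% of all tested genes, and was not tested. The median difference was 0.05, beside 0.01 over all 9110 tested genes. In a total RNA sample fewer cells of a type and less RNA per cell cannot be told apart, which holds for every difference below.

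The intervals bound the differences on the normalized log2 scale. This scale shrinks folds of dim probes, so for members near the detection limit the intervals do not bound the fold in RNA. The log2 differences ranged from -0.47 to 0.51. For 24 of the 34 probes the 95% interval lay within ±1, that is, within a 2-fold change of normalized intensity in either direction. The outermost bounds over all probes were -1.36 and 1.35. By contrast, the log2 difference of Abcg5, which with Abcg8 forms the sterol exporter of enterocytes, was 4.10 (95% interval 2.57 to 5.63), and that of Abcg8 was 2.98 (1.86 to 4.10). Abcg5 was detected on 4 of 4 VP16LXRa and 3 of 4 VP16 arrays, and Abcg8 on 4 of 4 VP16LXRa and 1 of 4 VP16 arrays, so that the VP16 mean of Abcg8 lay mostly at background. These intervals lay wholly above those of all 34 tested ABC probes. Neither Abcg5 nor Abcg8 passed over all probes (limma adjusted p = 0.688 for both), though each was higher in every VP16LXRa than in every VP16 tumor.

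**Figure D2:**
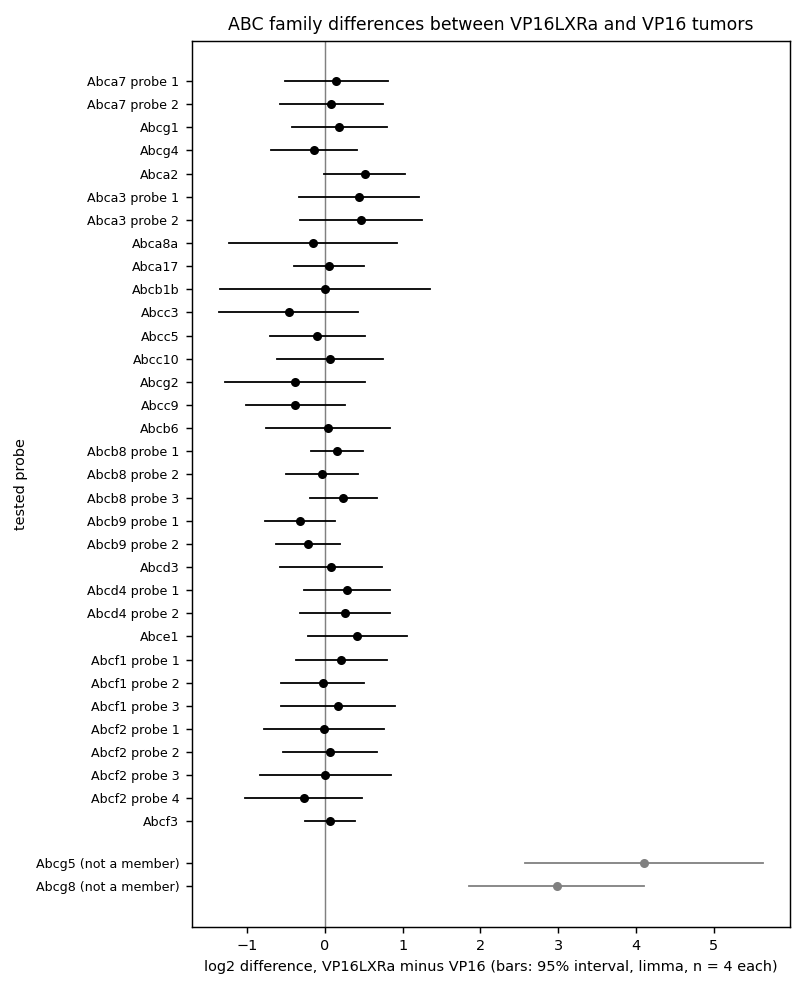
Log2 difference, VP16LXRa minus VP16, of 33 of the 34 tested probes (points) with its 95% interval from limma (bars, n = 4 arrays each), grouped by role and numbered from the brightest probe of a gene. All 33 black intervals span 0, and the grey intervals of Abcg5 and Abcg8 start at 2.57 and 1.86.

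Of the sterol exporters, Abcg1 passes cholesterol to high-density lipoprotein and is an LXR target in macrophages. Its log2 intensity was 5.84, 4.98, 5.68 and 5.29 in VP16LXRa replicates 5 to 8, against 5.67, 5.53, 5.05 and 4.78 in VP16 replicates 1 to 4. The groups overlapped over most of their range, and its probe was detected on 2 of 4 arrays in each group. The log2 difference was 0.19 (SE 0.27, 95% interval -0.43 to 0.80). On the normalized scale this interval lay below that of Abcg5, but that scale shrinks folds of probes as dim as this one. Macrophage markers (10 of 10 on the array, 9 tested, all 9 with positive differences and 0 past the threshold) summed to between 2622 and 10549 in VP16LXRa and between 2432 and 4831 in VP16 tumors, with the highest sums in VP16LXRa replicate 5 and the next in VP16LXRa replicate 7. These are also the VP16LXRa replicates with the highest Abcg1 values. Among VP16 tumors, replicate 1 had the highest sum and the highest Abcg1 value. Replicate 4, however, had the next highest sum (3810) and the lowest Abcg1 value (4.78). Whether macrophage content plays a part in the Abcg1 values was not tested.

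Abca7 moves phospholipids and takes part in phagocytosis. It stood at 9.42, 9.90, 10.04 and 10.01 in VP16LXRa replicates 5 to 8, against 9.0, 10.17, 10.11 and 9.50 in VP16 replicates 1 to 4. Its second tested probe read 6.72, 6.96, 7.50 and 7.28 in the VP16LXRa replicates and 6.30, 7.34, 7.01 and 7.47 in the VP16 replicates. In both groups and with both probes the lowest value was that of the array that stood apart. Another probe of the gene was detected on no array. The log2 differences were 0.15 (SE 0.29) and 0.08 (SE 0.29). Abcg4, a relative of Abcg1 known from brain, read 4.86, 5.43, 5.04 and 5.80 in VP16LXRa replicates and 5.16, 5.39, 5.36 and 5.79 in VP16 replicates. Its difference was -0.14 (SE 0.24) and its probe was detected on 2 of 4 arrays in each group.

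Among the other A subfamily genes, Abca2, a transporter of endosomes and lysosomes best known from myelin-forming cells, showed the widest separation relative to its error. Its log2 intensity was 6.25, 5.64, 5.86 and 5.92 in VP16LXRa replicates 5 to 8, against 5.93, 5.41, 5.27 and 5.02 in VP16 replicates 1 to 4. The means were 5.92 ± 0.26 in VP16LXRa and 5.41 ± 0.38 in VP16 tumors (SD, n = 4 each), a log2 difference of 0.51 (SE 0.23; 95% interval -0.01 to 1.03). Its probe was detected on 4 of 4 VP16LXRa and 2 of 4 VP16 arrays. Only VP16 replicate 1 reached into the VP16LXRa range. Without background correction the log2 difference was 0.15.

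Abca3, which loads lipids into the lamellar bodies of lung cells, had 2 tested probes with nearly equal differences, 0.44 (SE 0.34) and 0.47 (SE 0.34). The brighter probe read 9.03, 9.77, 10.78 and 10.03 in VP16LXRa replicates 5 to 8, against 9.46, 9.69, 9.50 and 9.21 in VP16 replicates 1 to 4. The other read 5.68, 5.12, 6.62 and 5.68 in VP16LXRa and 5.77, 5.56, 4.79 and 5.10 in VP16 replicates. VP16LXRa replicate 7 was the highest of the 8 arrays with both probes. Without it, the difference of the brighter probe was 0.14, and without VP16LXRa replicate 5 it was 0.73.

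Abca17, the neighbour of Abca3 on chromosome 17, differed by 0.05 (SE 0.20). Abca8a, one of the chromosome 11 cluster, read 4.50, 6.05, 4.50 and 5.92 in VP16LXRa and 4.65, 5.63, 6.19 and 5.10 in VP16 replicates. It was detected on 2 of 4 arrays in each group and changed by up to 1.69 log2 units between tumors, with a group difference of -0.15 (SE 0.47).

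The drug, conjugate and bile exporters were the group with most undetected members after the ABCA genes: 5 of 13 genes were tested, of which 3 had negative and 2 positive differences. Abcc3, which moves glucuronides and bile acids out of the basolateral side of enterocytes, had the most negative difference of the family. It read 8.68, 9.89, 10.17 and 9.67 in VP16LXRa replicates 5 to 8, against 9.21, 10.23, 10.21 and 10.62 in VP16 replicates 1 to 4, with means of 9.60 ± 0.65 and 10.07 ± 0.60 (SD, n = 4 each). The log2 difference was -0.47 (SE 0.39; 95% interval -1.36 to 0.42), and it was -0.16 without VP16LXRa replicate 5 and -0.75 without VP16 replicate 1. The lowest value in each group came from the array that stood apart and had the lowest colonocyte sum.

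Abcg2, the apical breast cancer resistance protein, had its lowest values in the same tumors. It read 4.67, 5.68, 5.81 and 4.97 in VP16LXRa and 4.71, 6.03, 6.29 and 5.65 in VP16 replicates, and was detected on 2 of 4 VP16LXRa and 3 of 4 VP16 arrays. The difference was -0.39 (SE 0.39), and it was -0.18 without VP16LXRa replicate 5, -0.71 without VP16 replicate 1 and -0.50 without both. Colonocyte markers as a list had 7 of 7 tested genes with negative differences and 0 past the threshold, with sums of 5121 to 79966 in VP16LXRa and 22377 to 83893 in VP16 tumors. Their part in the Abcc3 and Abcg2 values was not tested.

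Abcb1b, one of the P-glycoprotein genes that mice have in place of the single human ABCB1, varied most of all tested members, by 2.54 log2 units over the 8 arrays. It read 7.57 in VP16LXRa replicate 5 and 7.14 in VP16 replicate 1. In the other tumors it read 5.74, 5.55 and 5.03 in VP16LXRa replicates 6 to 8, and 5.67, 5.24 and 5.83 in VP16 replicates 2 to 4. The arrays that stood apart were thus the highest of their groups, and the group difference was 0.00 (SE 0.59). It was -0.53 without VP16LXRa replicate 5, 0.39 without VP16 replicate 1 and -0.14 without both, so that its sign depended on which array was left out. Its neighbour Abcb1a, the form usually found in gut epithelium, was detected on no array.

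Abcc2, an apical exporter of conjugates, showed the same array pattern, although it was not tested. One of its probes was detected on VP16LXRa replicate 5 (log2 6.74) and VP16 replicate 1 (6.12) alone, with 4.38 to 4.98 in the other VP16LXRa tumors and 4.44 to 4.78 in the other VP16 tumors. Its other probe was also highest in these arrays, at 5.40 in VP16LXRa replicate 5 and 5.27 in VP16 replicate 1, against 4.36 to 4.73 elsewhere. These are the tumors with high Wnt target, fibroblast and neutrophil and low colonocyte marker sums, and the relation between these values was not tested. The nucleotide exporter Abcc5 (-0.09, SE 0.27) and the drug exporter Abcc10 (0.07, SE 0.30) were detected on all 8 arrays and overlapped between groups.

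Abcc9 encodes SUR2, the sulfonylurea receptor subunit of potassium channels in vascular smooth muscle and pericytes. Its bright probe read 6.05, 6.13, 6.03 and 6.14 in VP16LXRa replicates 5 to 8, against 6.38, 6.76, 7.05 and 5.68 in VP16 replicates 1 to 4. The VP16LXRa tumors lay within 0.11 log2 units of each other, and VP16 replicate 4 was below all of them while the other VP16 tumors were above. The difference was -0.38 (SE 0.28; 95% interval -1.01 to 0.26). Without VP16 replicate 4 it was -0.64, with an unadjusted p of 0.0118 by limma (adjusted p = 0.9999). The array left out was the one that crossed the other group, so this p is no support for a difference. Without that array 1.68% of all probes had an unadjusted p under 0.05.

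A second Abcc9 probe, below the detection filter, was detected on 2 of 4 VP16 arrays and on 0 of 4 VP16LXRa arrays. It read 4.54, 4.69, 4.46 and 4.75 in VP16LXRa and 5.08, 5.67, 5.49 and 4.97 in VP16 replicates, so that no VP16LXRa value reached a VP16 value. No bound on its fold can be given, because its VP16 mean (5.30) did not exceed the mean over the VP16LXRa arrays of the lowest level that each array counts as detected. The other 2 Abcc9 probes were detected on no array. Smooth muscle markers (7 of 7 tested, 4 positive and 3 negative differences, 0 past the threshold) summed to 12756 to 61034 in VP16LXRa and 9477 to 80134 in VP16 tumors. Their lowest and highest VP16 sums belonged to replicates 4 and 3, which also had the lowest and highest VP16 values of the bright Abcc9 probe, while the second probe was highest in VP16 replicate 2. Among VP16LXRa tumors the bright probe stayed between 6.03 and 6.14 over the whole range of smooth muscle sums. Whether this content plays a part in the Abcc9 values was not tested.

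**Figure D3:**
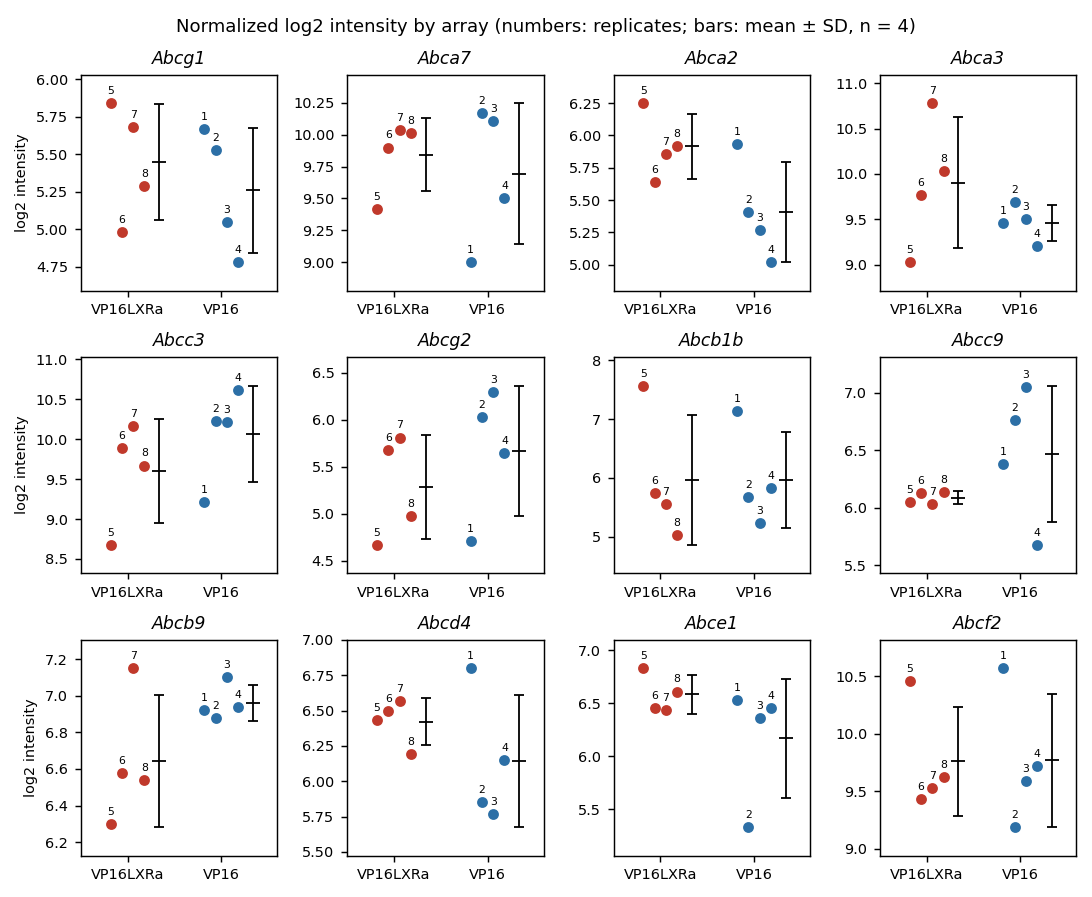
Normalized log2 intensity of 12 ABC genes on each array at the brightest tested probe, VP16LXRa left of VP16, with replicate numbers beside the points and the mean ± SD (n = 4) as bars. Axes differ between panels and do not start at 0. Groups overlap in every panel, and replicates 5 and 1 are the highest in Abcb1b and Abcf2 and the lowest in Abcc3 and Abcg2.

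Of the intracellular B subfamily, Abcb9, a lysosomal peptide transporter related to the TAP proteins, had 2 tested probes that differed in the same direction. The brighter probe read 6.30, 6.58, 7.15 and 6.54 in VP16LXRa replicates 5 to 8, against 6.92, 6.88, 7.10 and 6.94 in VP16 replicates 1 to 4. The other read 6.14, 6.46, 6.76 and 6.65 in VP16LXRa and 6.62, 6.89, 6.57 and 6.79 in VP16 replicates. With the brighter probe VP16LXRa replicate 7 lay above all VP16 tumors and the other VP16LXRa tumors lay below them, while with the other probe VP16LXRa replicates 7 and 8 were within the VP16 range. The differences were -0.32 (SE 0.20) and -0.22 (SE 0.18). Without VP16LXRa replicate 7 the brighter probe differed by -0.49, with an unadjusted p of 0.02 by limma (adjusted p = 0.9998). Again the array left out was the one that crossed the other group, so this p is no support for a difference. Without it 1.43% of all probes had an unadjusted p under 0.05.

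The porphyrin transporter Abcb6 differed by 0.04 (SE 0.35). Abcb8, of the inner mitochondrial membrane, had 3 tested probes with differences of 0.16 (SE 0.15), -0.03 (SE 0.20) and 0.24 (SE 0.19). The last of these probes read 7.15, 6.49, 6.65 and 6.88 in VP16LXRa and 6.51, 6.42, 6.49 and 6.82 in VP16 replicates, with overlap between the groups. Abcb10, a mitochondrial protein of heme synthesis, was detected on no array.

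The D subfamily brings fatty acids into peroxisomes, except Abcd4, which serves lysosomal vitamin B12 export. Abcd3, the most abundant peroxisomal membrane transporter in many tissues, differed by 0.08 (SE 0.29). Its lowest value, 10.37, was that of VP16LXRa replicate 5. Abcd4 read 6.43, 6.50, 6.57 and 6.19 in VP16LXRa and 6.80, 5.85, 5.77 and 6.15 in VP16 replicates. Its difference was 0.28 (SE 0.24), and 0.26 (SE 0.25) with its other probe. With the brighter probe, VP16 replicate 1 was above all VP16LXRa tumors and the other VP16 tumors were below them. Without VP16 replicate 1 the difference was 0.50 (limma unadjusted p = 0.0247, adjusted p = 0.9709). Here too the array left out was the one that crossed the other group, so this p is no support for a difference. Without it 2.8% of all probes had an unadjusted p under 0.05.

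Of the soluble members, Abce1, which splits ribosomes after termination, read 6.83, 6.45, 6.44 and 6.61 in VP16LXRa replicates 5 to 8, against 6.53, 5.33, 6.36 and 6.45 in VP16 replicates 1 to 4. The positive difference of 0.42 (SE 0.28) rested on VP16 replicate 2, the only array that did not detect it, and was 0.14 without that array. Abcf1, an initiation factor partner, differed by 0.21 (SE 0.26), -0.03 (SE 0.23) and 0.17 (SE 0.32) with its 3 probes. Without VP16LXRa replicate 5, the highest array for both positive probes, 0.21 became 0.04 and 0.17 became -0.09. Abcf2 had 4 probes, all detected on every array, with differences of -0.01 (SE 0.34), 0.07 (SE 0.26), 0.01 (SE 0.37) and -0.27 (SE 0.33). Its brightest probe read 10.46 in VP16LXRa replicate 5 and 10.57 in VP16 replicate 1, against 9.43 to 9.62 in the other VP16LXRa and 9.19 to 9.72 in the other VP16 tumors. Abcf3 varied least, by 0.33 log2 units over the 8 arrays, with a difference of 0.07 (SE 0.14).

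The tested ABC genes spanned a median of 1.23 log2 units over the 8 arrays, beside 1.01 for all tested genes. VP16LXRa replicate 5 and VP16 replicate 1 held the 2 highest values for 4 of the 23 genes (17.4%, beside 21.9% of all tested genes), which were Abca2, Abcb1b, Abcc5 and Abcf2. They held the 2 lowest for 6 (26.1%, beside 19.5%), among them Abca7, Abcb6, Abcc3, Abcc10 and Abcg2. Both shares were near those of all tested genes.

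**Figure D4:**
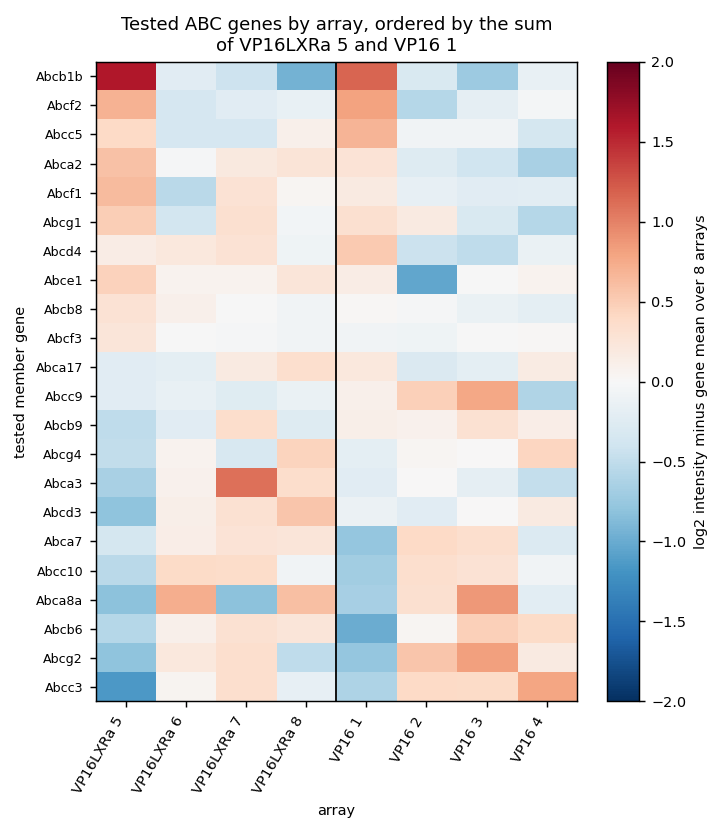
Log2 intensity of 22 of the 23 tested ABC genes (rows) on each array (columns, VP16LXRa left of VP16), centred on the mean of each gene, red above and blue below it. Rows are ordered by the sum of VP16LXRa replicate 5 and VP16 replicate 1, so that genes high in both are at the top (Abcb1b, Abcf2, Abcc5) and genes low in both at the bottom (Abcc3, Abcg2, Abcb6).

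Without these 2 arrays, leaving 3 against 3, again 0 ABC probes passed limma's test at an adjusted p under 0.05. An unadjusted p under 0.05 was then reached by 3 of 34 probes (8.82%, background 3.24%): Abca2 (difference 0.57), the brighter probe of Abca3 (0.73) and the brighter probe of Abcd4 (0.50), all higher in VP16LXRa tumors and each with an adjusted p of 0.9998. The groups did not overlap for 4 probes (11.8%, background 8.03%), these 3 and that of Abcc3 (-0.45). In the VP16 replicates kept here, 2 to 4, Abca2 had detection p-values of 0.0075, 0.015 and 0.055. Its comparison thus set detected VP16LXRa values against VP16 values near background. Without both arrays the differences were -0.03 for Abcc5, 0.04 for Abcc10, -0.08 for Abcb6, 0.06 for the brighter probe of Abca7 and 0.03 for the brightest probe of Abcf2. The Abcg1 difference was 0.19 without both arrays, but 0.03 without VP16 replicate 4 and 0.34 without VP16LXRa replicate 6. With all 8 arrays and limma's array weights, an unadjusted p under 0.05 was reached by Abca2, Abca3 and Abcc9 (3 of 34, background 3.71%, all with an adjusted p of 0.9996). With probes detected on at least 1 array, 1 of 43 probes, the second of Abcc9, had such a p (background 1.72%) and no overlap (background 1.29%). With no filter these counts were 2 of 79 (Abca2 and Abcc9, background 2.63%) and 1 of 79 (Abcc9, background 1.97%). This second Abcc9 probe was detected on 2 of 4 VP16 and 0 of 4 VP16LXRa arrays. At the filter of 1 array it thus entered only through the group where it was higher. Its p and lack of overlap set values near background against background, and are no support for a difference.

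Genes that work with the family came from lists of ABC proteins under other symbols and of 4 processes. Again none passed limma's test and none had an unadjusted p under 0.05. Over all tested probes these shares were 0.00842% and 1.68%, so lists of this size would hold few or none. The ABC proteins that carry other symbols, Cftr, Tap1 and Tap2, were all tested and 0 of 3 passed limma's test over all probes. Tap1, which loads peptides for antigen presentation, differed by -0.33 (SE 0.72), and the chloride channel Cftr by -0.27 (SE 0.59). Cftr was lowest in the arrays that stood apart. It read 8.05 in VP16LXRa replicate 5 and 8.6 in VP16 replicate 1, against 10.06 to 10.47 in the others. Of the genes of peroxisomal fatty acid oxidation and import 21 were tested, 11 with positive and 10 with negative differences and 0 past the threshold, among them Decr2 (-0.27, SE 0.24) and Hsd17b4 (0.18, SE 0.16). Of the mitochondrial iron-sulfur and heme genes 20 were tested, 8 positive and 12 negative, 0 past the threshold, with Nfu1 at -0.42 (SE 0.25) and Alas1 at -0.18 (SE 0.20). Ribosome recycling and translation-control genes (12 tested, 8 positive and 4 negative, 0 past the threshold) included Mcts1 at 0.15 (SE 0.14) and Hbs1l at 0.14 (SE 0.14). Bile acid and xenobiotic handling genes (18 tested, 7 positive and 11 negative, 0 past the threshold) included Arnt at 0.35 (SE 0.20) and the ileal bile acid binding protein Fabp6 at 0.26 (SE 0.29). Arnt was detected on 4 of 4 VP16LXRa but 1 of 4 VP16 arrays. It thus passed the filter mostly through the group where it was higher, and its difference set values near background against background.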

How the data were processed

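QIAzol served for extraction of total RNA and an Ambion TotalPrep kit for labelling, per the labels' protocols. GenomeStudio is the only tool in the submitters' processing notes, where it has no version. The deposited table gives, per the file headers, non-normalized linear intensity and a detection p-value for every probe on 8 arrays. The authors' processed intensity values are in another deposited table, with arrays at nearly equal medians (18.04 to 18.16) and values down to -24.3. Its normalization and the genome build of the annotation are not given in the sources used here. Background correction used normexp with negative controls inferred from detection p-values. An offset of 16 was added, and quantile normalization and log2 followed (the steps of neqc, limma 3.58.1, R 4.3.3). The offset shrinks folds of dim probes. Tested probes were those detected (p under 0.01) on 4 or more arrays (46.2%). VP16LXRa was compared with VP16 (4 arrays each, 0 identical pairs of arrays) with lmFit and eBayes, two-sided, Benjamini-Hochberg adjusted over all 11875 kept probes, threshold 0.05. The number of arrays limits the precision. Each gene was represented by its brightest kept probe unless probes are given singly. Marker sums add linear normalized intensities over a list's genes.

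One member is counted in all totals but is not reported here by name or value, and all other tested members were named. Values on every array are given for Abca1, Abcg1, Abca7 and Abcg4, the 10 probes with the smallest p and the 8 with the widest range, apart from that member. Values of Abcc2, Abcf2 and the second probe of Abcc9 were added after their values were seen. Members and lists were chosen with earlier results of these data known. All 45 symbols matched the GRCm38.p6 annotation, used for names, neighbours and promoters. The fit was tested on simulated data. Alternatives were other background, scaling, offset, filter and variance settings, array weights, the authors' values, and leaving out arrays.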

Additional observations from a re-analysis of the deposited data

Results flagged for a closer look

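In each group of 4 arrays the gap between the most extreme array and the next was compared with the group's range for the 34 tested ABC probes, 68 groups in all. Only 2 groups (2.94%) had a gap above Dixon's 95% critical value, and chance flags about 1 group in 20. Abce1 in VP16 replicate 2 was far below the others of its group, at 5.33 against 6.36 to 6.53. Abcf1 at its brightest probe was far above the others in VP16 replicate 1, at 10.96 against 10.56 to 10.62.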

How the results depend on the processing

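The count of ABC probes past the adjusted threshold was 0 under every alternative run. The alternatives gave 636 further values for the 34 probes. In 63 the difference had the opposite sign, none of them with an unadjusted p under 0.05 before or after, and the smallest adjusted p was 0.9709. The median difference over genes stayed between 0.01 and 0.12. ABC probes with an unadjusted p under 0.05, 0 in the chosen processing, numbered 1 with a filter of detection on at least 1 array, 2 with no filter, 3 with array weights and 3 without VP16 replicate 1 and VP16LXRa replicate 5 together. Probes without overlap, also 0, numbered 1 with either looser filter (the second Abcc9 probe, detected in VP16 tumors only) and 4 without both arrays. Leaving out single arrays gave 0 to 2 probes with an unadjusted p under 0.05 (Abca2, Abca3, Abcb9, Abcc9 or Abcd4; 1.43% to 2.8% of all probes), 0 to 3 without overlap (the same and Abcc3; 2.39% to 5.09% of all probes), and 0 to 2 calls over all probes. The single call over all probes was 0 without background correction, with an offset of 50, with detection required on all 8 arrays and with no filter, and became 4 calls without both arrays. Detected genes numbered 15 when all 8 arrays were required, 28 with at least 1 array and 25 at a detection p under 0.05. The cause of these changes was not tested, except that looser filters add probes. No paired analysis was possible because replicate numbers 1 to 4 and 5 to 8 are not shared between the groups. Signal near background limits Abcg1, Abcg2, Abcg4, Abca2, Abca8a and Abca17, and in some samples Abcb1b, Abce1 and the dimmer probes of Abca3 and Abcd4.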
